A study of Cricetiscus sungorus with 24 samples.

Results

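Insulin and insulin-like growth factor signalling through Akt, GSK3 and mTOR was followed in kidney as the read levels of 9 genes, Igf1r, Insr, Akt1, Akt2, Gsk3a, Gsk3b, Tsc2, Mtor and Rptor. The genes were taken by symbol from the deposited tables, and for each gene the mouse transcript with the highest total was used, because the same read is listed under several transcripts of a gene. All 9 genes were among the 15842 genes listed in experiment 2 and 8 were among the 9681 genes listed in experiment 1, where Rptor was not listed. The kidneys came from 24 adult Djungarian hamsters (Phodopus sungorus), a species that loses and regains body and organ mass with day length. In experiment 2, females kept in short photoperiod (SP, 8 h of light per day) for 8 weeks were injected intraperitoneally on 3 days with a vehicle of dimethyl sulfoxide and saline (SAL, n = 6) or with 18 µg of ovine prolactin in that vehicle (PRL, n = 6). In experiment 1, males were kept in long photoperiod (LP, 16 h of light, n = 4) or were moved to SP for 12 weeks (SP12wk, n = 4) or 28 weeks (SP28wk, n = 4). Each library held RNA of 1 kidney sample, and the 12 libraries of an experiment shared 1 nanopore flow cell. Sex, injection, weeks of SP and flow cell all differed between the experiments and cannot be told apart, so that the experiments were not compared.

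The pathway begins at the cell surface, where insulin and the insulin-like growth factors activate receptor tyrosine kinases and, through phosphatidylinositol 3-kinase, the kinase Akt. Akt phosphorylates and restrains both GSK3 kinases and the TSC complex, and with the TSC complex restrained the mTOR kinase drives protein synthesis and cell growth. In the kidney the pathway is known for tubule growth, gluconeogenesis and sodium reabsorption. It is controlled mostly by phosphorylation, which RNA levels do not measure.

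The genes were read from few molecules. A library of experiment 2 held 174053 to 756523 counts with 1 transcript per gene, and 1 count was worth 1.32 to 5.75 CPM, the count of a gene scaled to a common library total. A library of experiment 1 held 15687 to 57585 counts, and 1 count was worth 17.4 to 63.8 CPM. Libraries of a group ranked the genes with Spearman correlations of 0.739 to 0.891 in experiment 2 and 0.415 to 0.683 in experiment 1. Summed levels of 7 listed proximal tubule markers of 8 were 970 to 3055 CPM in SAL and 1352 to 3502 CPM in PRL, and those of 6 listed markers were 1402 to 2719 CPM in experiment 1. The marker Cubn was listed in neither table. In these bulk samples, fewer cells of a type and less RNA per cell cannot be told apart.

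Reads repeated over transcripts to a different extent in each gene. In experiment 2, Tsc2 had 36 transcript rows with 5 distinct sets of counts, from 49 reads on 6 rows to 19 reads on 2 rows, and the rows summed to 1036. Akt2 had 11 rows, 9 with 34 reads and 2 with 32 reads, which summed to 370. Gsk3a (36 reads, 4 rows), Insr (64 reads, 4 rows) and Mtor (30 reads, 2 rows) had the same counts on every row. The highest rows of Igf1r, Akt1 and Gsk3b held 152, 110 and 97 reads, over 7, 4 and 3 rows. Rptor had 8 rows, of which the highest held 3 reads. Hamster reads were named by mouse transcripts, so that reads of close paralogs (Akt1 with Akt2, Gsk3a with Gsk3b, Igf1r with Insr) may be assigned to the wrong copy, and this was not tested.

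PRL was compared with SAL first, which asks how 3 days of prolactin bore on the kidney of short-day females. None of the 8 genes that could be fitted differed between PRL and SAL in the quasi-likelihood test of edgeR (Benjamini-Hochberg adjusted over 10696 genes), where the background was 0% of all genes. None had an unadjusted p under 0.05, against 4.88% of all genes, and DESeq2 called 0 of the genes and 0 of all genes. The fitted log2 fold change was above 0 for 5 genes (Igf1r, Akt1, Akt2, Gsk3a, Gsk3b) and below 0 for 3 (Insr, Tsc2, Mtor), with a median of 0.10 beside 0.03 over all genes. Gsk3a, which encodes the alpha form of glycogen synthase kinase 3, had the largest fitted difference of the 8 and higher CPM values in PRL. The ranges of PRL and SAL overlapped for all 9 genes, whereas 0.14% of all genes had ranges that did not overlap. Every 95% interval included 0, and together the intervals reached from -1.69 to 1.79.

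**Figure D1:**
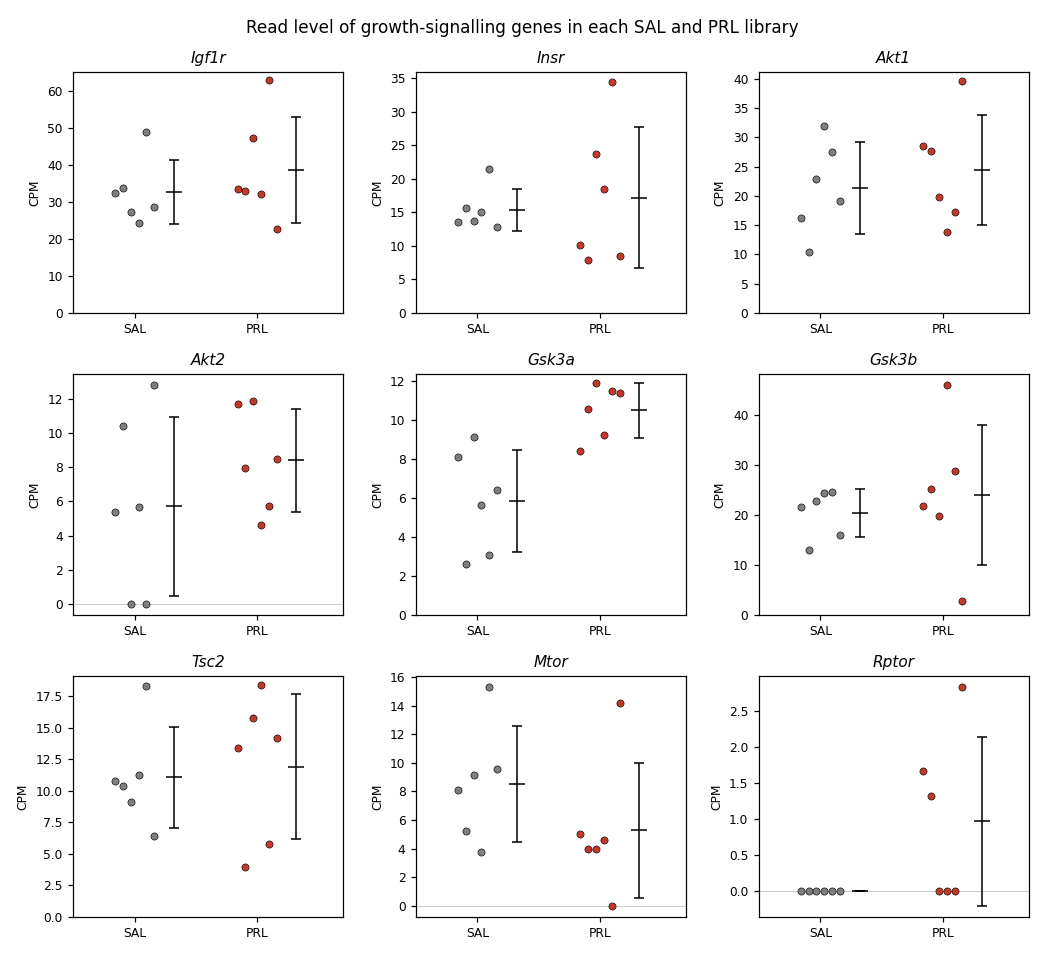
CPM of each of the 9 genes in the 6 SAL libraries (grey) and 6 PRL libraries (red). Points are libraries, and the bar beside them is the mean ± SD. The groups overlap in all 9 panels, and in the Gsk3a panel 5 of the 6 PRL libraries lie above the highest SAL library, at 9.13 CPM. Of these 5, PRL replicate 4 (9.20 CPM) held 2 reads, as did that SAL library.

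Igf1r encodes the receptor of the insulin-like growth factors and had the most reads of the genes. In SAL it lay at 24.5 CPM at the lowest, 30.6 at the median and 49.0 at the highest (32.6 ± 8.68, SD, n = 6), from 69 reads. PRL libraries held 22.7, 33.3 and 63.2 CPM in the same order (38.7 ± 14.4, SD, n = 6), from 83 reads. All PRL libraries but the highest and the lowest lay within the SAL range, and the highest PRL library was PRL replicate 5, the shallowest of the experiment. The log2 fold change was 0.11 ± 0.29 (SE, edgeR's quasi-likelihood test, adjusted p = 0.999), and the difference of the mean CPM had p = 0.416 in a two-sided exact permutation test. Without PRL replicate 5 the log2 fold change was -0.01.

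Insr encodes the insulin receptor. SAL libraries held between 12.8 and 21.4 CPM with a median of 14.4 (15.3 ± 3.15, SD, n = 6), from 33 reads. PRL libraries held between 7.93 and 34.5 CPM with a median of 14.2 (17.2 ± 10.5, SD, n = 6), from 31 reads. The medians were nearly equal and the PRL libraries lay on both sides of the SAL range, 3 below it, 2 above it and 1 within it. PRL replicate 5 again held the highest value, and without it the mean of PRL was 1.63 CPM below that of SAL rather than 1.83 CPM above it. The log2 fold change was -0.19 ± 0.40 (SE), below 0 whereas the difference of the means was above 0, and the exact permutation test gave p = 0.714.

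Akt1 encodes the most widely expressed Akt kinase. Its CPM in SAL was 10.4 at the lowest, 21.0 at the median and 32.0 at the highest (21.4 ± 7.80, SD, n = 6), from 47 reads. In PRL it was 13.8, 23.8 and 39.7 CPM (24.5 ± 9.46, SD, n = 6), from 63 reads. Of the PRL libraries, replicate 6 alone lay above the SAL range. Fitted in edgeR, the log2 fold change was 0.22 ± 0.34 (SE), and the CPM difference had p = 0.543 in the exact permutation test. Without PRL replicate 6 the log2 fold change was 0.01 and the CPM difference went from 3.09 to 0.043.

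Akt2, the Akt kinase best known from insulin-driven glucose uptake, was among the genes that the study chose to plot on these samples. Its values are therefore not independent of that choice. The study placed Akt2 in a group of coexpressed genes whose levels ran against the diameter of the convoluted tubules, which it found larger in PRL. Levels in SAL ran between 0 and 12.8 CPM with a median of 5.52 (5.71 ± 5.25, SD, n = 6), from 13 reads, and 2 SAL libraries held none. Levels in PRL ran between 4.60 and 11.9 CPM with a median of 8.22 (8.39 ± 2.99, SD, n = 6), from 21 reads, and every PRL library held at least 1. The PRL values lay within the SAL range. A log2 fold change of 0.48 ± 0.56 (SE) had a 95% interval of -0.65 to 1.61, and the exact permutation test of the CPM gave p = 0.292.

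Gsk3a was plotted by the study too, and its values carry the same limit. The study reported a negative correlation of Gsk3a with tubule diameter as well. Here the mean CPM of Akt2 and that of Gsk3a were higher in PRL than in SAL. Their correlation with the diameter was not computed. The 6 SAL libraries held 3, 1, 2, 3, 1 and 2 reads (replicates 1 to 6), worth 2.60 CPM at the lowest, 6.02 at the median and 9.13 at the highest (5.82 ± 2.63, SD, n = 6). The 6 PRL libraries held 5, 8, 3, 2, 2 and 4 reads, worth 8.37, 10.96 and 11.9 CPM (10.5 ± 1.40, SD, n = 6). The groups overlapped in 1 SAL library, replicate 3 at 9.13 CPM, which lay above PRL replicate 1 at 8.37 CPM. PRL replicate 4, at 9.20 CPM, held 2 reads as SAL replicate 3 did, so that the order of these libraries came from their depth alone. The difference of the means was 4.65 CPM, larger than the SD of either group, with p = 0.00433 in the two-sided exact permutation test, where 0.00216 is the smallest p that 924 splits can give. Adjusted over the 10696 genes, the p of this exact permutation test was 0.999. Gsk3a was the 1 gene of 9 under an unadjusted p of 0.05 in this test, against 4.54% of all genes in either direction and 3.12% with PRL higher. In edgeR's quasi-likelihood test the log2 fold change was 0.78 ± 0.50 (SE), with a 95% interval of -0.22 to 1.79 and an unadjusted p of 0.123 (adjusted p = 0.999). Over the pooled counts of a group, the level was 5.60 CPM in SAL (exact Poisson 95% interval 2.89 to 9.78) and 10.2 CPM in PRL (6.54 to 15.2), intervals that overlap and cover counting error only. The summed level of 5 adipose markers was between 39.5 and 242 CPM in SAL (median 71.3) and between 78.0 and 298 CPM in PRL (median 174), with every marker detected in both groups, and its part in the Gsk3a difference was not tested.

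Gsk3b encodes the beta form of GSK3. The SAL level was between 13.01 and 24.5 CPM with a median of 22.2 (20.4 ± 4.78, SD, n = 6), from 44 reads. The PRL level was between 2.84 and 46.0 CPM with a median of 23.4 (24.0 ± 13.98, SD, n = 6), from 53 reads. PRL replicates 6 and 4 were the lowest and the highest of all 12 libraries, with the other PRL libraries between 19.8 and 28.7 CPM. With a log2 fold change of 0.09 ± 0.37 (SE), the CPM difference had p = 0.578 in the exact permutation test.

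Tsc2 encodes tuberin, the subunit of the TSC complex that switches off the mTOR activator Rheb. In SAL it was between 6.40 and 18.4 CPM with a median of 10.6 (11.1 ± 3.98, SD, n = 6), from 24 reads. In PRL it was between 3.97 and 18.4 CPM with a median of 13.8 (11.9 ± 5.76, SD, n = 6), from 25 reads. The groups covered nearly the same range. Its log2 fold change was -0.07 ± 0.45 (SE), and the mean of PRL was 0.850 CPM above that of SAL (exact permutation test, p = 0.760). With all 36 rows summed, the log2 fold change was 0.04.

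Mtor encodes the kinase at the centre of both mTOR complexes. SAL libraries held between 3.76 and 15.3 CPM with a median of 8.62 (8.52 ± 4.03, SD, n = 6), from 17 reads. PRL libraries held between 0 and 14.2 CPM with a median of 4.28 (5.29 ± 4.71, SD, n = 6), from 13 reads. Of the PRL libraries, 5 held 0 to 5.02 CPM and PRL replicate 6 stood apart at 14.2 CPM, from 5 reads. Its log2 fold change was -0.54 ± 0.57 (SE) with a 95% interval of -1.69 to 0.60, and the mean of PRL was below that of SAL (p = 0.260, exact permutation test). Without PRL replicate 6 the difference of the means was -5.01 CPM, with p = 0.0303 in the exact permutation test, while the log2 fold change was -1.05 with an unadjusted p of 0.0938 in edgeR's quasi-likelihood test. That library was singled out after its value was seen.

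Rptor encodes raptor, the scaffold that makes mTOR complex 1. No SAL library held a read on its highest row, SAL replicate 3 held 1 read on another row, and PRL replicates 1, 2 and 6 held 1 read each. The pooled level in PRL was 1.28 CPM (exact Poisson 95% interval 0.263 to 3.73), and 3 counts, the limit set by a count of 0 over the whole group, were worth 1.40 CPM in SAL. Rptor had too few libraries with a read for the edgeR fit, and no difference was detectable at this depth (p = 0.182, exact permutation test).

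**Figure D2:**
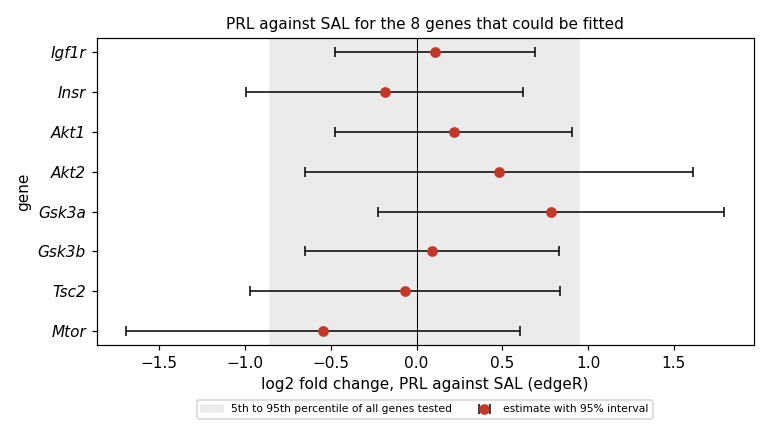
Fitted log2 fold change of PRL against SAL for the 8 genes in edgeR (red points) with its 95% interval (bars). The grey band spans the 5th to the 95th percentile of all 10696 genes, -0.85 to 0.95, and holds all 8 points. The interval of Gsk3a runs from -0.22 to 1.79 and that of Mtor from -1.69 to 0.60.

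The other genes of the pathway were taken from a list of 107 genes in 8 groups by role. Of the 99 listed in experiment 2, 79 could be fitted, and 0 passed edgeR's quasi-likelihood test after adjustment, with 0 by DESeq2 as well. At an unadjusted p under 0.05, 2 were higher and 2 lower in PRL, against 2.54% and 2.34% of all genes. The fitted change was above 0 for 39 genes and below 0 for 40, with a median of -0.00 on the log2 scale beside 0.03 over all genes. By group, the medians lay between -0.11 for 10 targets of the mTOR complexes and 0.26 for 5 partners in the mTOR complexes.

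Sgk1, a kinase activated by mTOR complex 2 that raises sodium uptake in the distal tubule, had a mean of 83.0 ± 25.2 CPM in SAL, from 179 reads, and of 129 ± 24.4 CPM in PRL, from 309 reads (SD, n = 6 each). Its SAL values ran from 36.4 to 106 CPM and its PRL values from 87.4 to 154 CPM, which overlapped. The log2 fold change was 0.57 ± 0.24 (SE), with an unadjusted p of 0.0225 and an adjusted p of 0.891 in edgeR's quasi-likelihood test. Ppp2r1a, the scaffold of the phosphatase PP2A, which removes phosphate from Akt, had a log2 fold change of 0.69 ± 0.33 (SE), from 24.0 ± 9.12 CPM (SAL) to 41.2 ± 20.5 CPM (PRL, SD, n = 6 each). Eif4ebp1, a repressor of translation that mTOR complex 1 inactivates, rested on 9 SAL reads and 23 PRL reads, and its log2 fold change was 1.07 ± 0.54 (SE).

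Rragc, a Rag GTPase that brings mTOR complex 1 to the lysosome, had lower values in PRL, from 79.6 ± 13.2 CPM (SAL) to 58.5 ± 11.5 CPM (PRL, SD, n = 6 each), a log2 fold change of -0.50 ± 0.24 (SE) with an unadjusted p of 0.0403 and an adjusted p of 0.996 in edgeR's quasi-likelihood test. Pik3cb, a catalytic subunit of phosphatidylinositol 3-kinase, rested on 15 SAL reads and 5 PRL reads, and its log2 fold change was -1.60 ± 0.76 (SE). Foxo1, a transcription factor that Akt keeps out of the nucleus, rested on 22 SAL reads and 12 PRL reads, with 11.1 ± 4.80 CPM and 3.68 ± 3.34 CPM (SD, n = 6 each) and a log2 fold change of -1.07 ± 0.55 (SE). These 6 genes are the 3 on each side of 0 whose p was smallest in edgeR. In its quasi-likelihood test the unadjusted p was 0.0452 for Ppp2r1a, 0.0523 for Eif4ebp1, 0.0406 for Pik3cb and 0.0577 for Foxo1. Their adjusted p was 0.996 to 0.999 in that test.

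**Figure D3:**
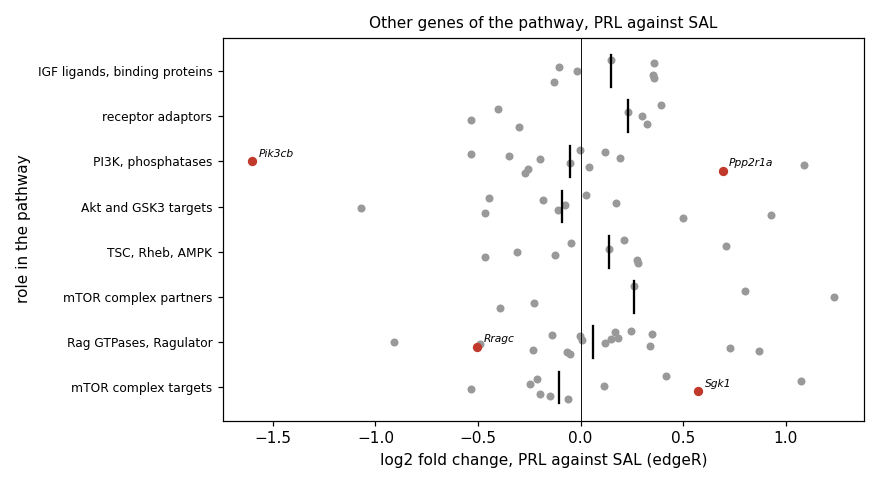
Fitted log2 fold change of PRL against SAL for the 79 other genes of the pathway (points), in rows by role, with the median of each row as a black bar. Red points with names had an unadjusted p under 0.05 in edgeR, and none passed after adjustment. Each row has genes on both sides of 0.

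The photoperiod comparison followed the same genes in males from LP through 12 and 28 weeks of SP. At 17.4 to 63.8 CPM per count, most levels rested on 0 to 2 reads a library, and 5 of the 8 listed genes (Igf1r, Insr, Akt1, Gsk3a, Gsk3b) had reads in enough libraries for the fit. None of the 5 differed among the 3 groups in edgeR's quasi-likelihood F test after adjustment over 5086 genes, of which 0.275% passed. None of the 5 passed between pairs of groups, where the background was 0.0197% for SP12wk against LP, 0.138% for SP28wk against SP12wk and 0.216% for SP28wk against LP. DESeq2 called 0 of them as well. At an unadjusted p under 0.05, 0 of the 5 passed the F test, against 7.47% of all genes. In SP12wk against LP, Gsk3a passed at that level and was lower in SP12wk, against 7.26% of all genes in either direction and 2.69% that were lower. None passed in SP28wk against SP12wk or in SP28wk against LP, where 6.1% and 8.57% of all genes did. Ranges overlapped between each pair of groups for all 8 genes, whereas 2.67%, 3.38% and 3.3% of all genes had ranges that did not overlap in SP12wk against LP, SP28wk against SP12wk and SP28wk against LP.

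**Figure D4:**
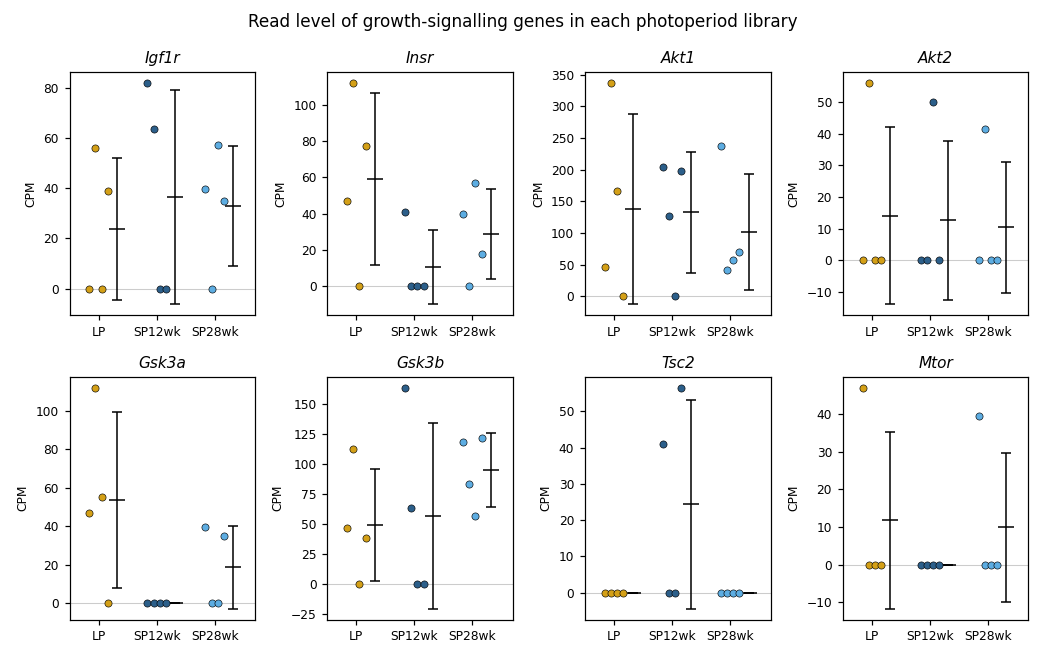
CPM of the 8 genes listed in experiment 1 in the 4 LP, 4 SP12wk and 4 SP28wk libraries. Points are libraries, and the bar beside them is the mean ± SD, drawn to negative values where the SD exceeds the mean. The 4 SP12wk libraries sit at 0 in the Gsk3a panel, and the 3 groups overlap at 0 in all panels but those of Akt1 and Gsk3b, where each SP28wk library lies above 0.

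Gsk3a had 47.0, 112, 55.5 and 0 CPM in LP (replicates 1 to 4; 53.7 ± 46.0, SD, n = 4), from 4 reads. It had no read in any SP12wk library, a limit of 31.4 CPM for 3 counts over that group. It had 39.5, 0, 0 and 34.7 CPM in SP28wk (18.6 ± 21.5, SD, n = 4), from 3 reads. Thus 3 of 4 LP libraries and 2 of 4 SP28wk libraries held a read and no SP12wk library did, and LP replicate 4 at 0 CPM overlapped SP12wk. These values are from the highest of 4 transcript rows, with 7 reads. The other 3 rows held 5 reads and include the transcript used in experiment 2. The reads of LP replicate 1 and SP28wk replicate 1 lay on the highest row alone. Over the pooled counts, the exact Poisson 95% interval was 13.2 to 124 CPM in LP and reached up to 38.6 CPM in SP12wk, so that the intervals overlapped. The exact permutation test over the 3 groups gave p = 0.0424 for Gsk3a (0.683 adjusted over the 5086 genes), against 6.63% of all genes under 0.05, and it was the 1 gene of 8 under 0.05. This exact permutation p was 0.0623 to 0.152 when LP replicate 1, 2 or 3, any SP12wk library, or SP28wk replicate 2 or 3 was left out, and 0.0788 with all rows summed. SP12wk against LP had p = 0.143 in the exact permutation test, where 0.0286 is the smallest p that 4 against 4 can give. In edgeR's quasi-likelihood test the log2 fold change was -3.30 (95% interval -6.28 to -0.32), with an unadjusted p of 0.0299 (adjusted p = 0.603). That unadjusted p was 0.0521 to 0.0817 with the replicate block and without LP replicate 2 or SP12wk replicate 1, 3 or 4, and it was 0.194 in DESeq2. With no read in SP12wk, the size of the fold change cannot be measured. On the log2 scale it was -4.89 with all rows summed and -2.49 in DESeq2. The pooled LP level of 48.3 CPM was 1.54 times the limit of 31.4 CPM for SP12wk. Of the adipose markers, 3 of 5 were listed, with summed levels of 94.1 to 117 CPM (LP), 0 to 127 CPM (SP12wk) and 57.1 to 166 CPM (SP28wk), and Adipoq and Lep had no read in SP12wk or SP28wk. Their part in the Gsk3a values was not tested.

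Gsk3b had 47.0, 112, 0 and 38.8 CPM in LP (49.5 ± 46.5, SD, n = 4) and 163, 63.7, 0 and 0 CPM in SP12wk (56.8 ± 77.2, SD, n = 4). In SP28wk it had 119, 83.0, 57.1 and 122 CPM (95.1 ± 30.8, SD, n = 4), from 14 reads against 4 in LP and 5 in SP12wk. All SP28wk libraries held at least 2 reads, whereas 1 LP library and 2 SP12wk libraries held none, and the ranges overlapped. The exact permutation test over the 3 groups gave p = 0.467.

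Insr had 47.0, 112, 0 and 77.7 CPM in LP (59.2 ± 47.6, SD, n = 4) and 1 read in SP12wk, worth 40.9 CPM in replicate 1. In SP28wk it had 39.5, 0, 57.1 and 17.4 CPM (28.5 ± 25.02, SD, n = 4). Reads were present in 3 LP, 1 SP12wk and 3 SP28wk libraries, and the groups overlapped. The exact permutation test over the 3 groups gave p = 0.164, and edgeR's F test an unadjusted p of 0.348. Without LP replicate 3, the LP library with no Insr read, which was singled out after its value was seen, the exact permutation p was 0.0270 and the unadjusted p of edgeR's F test was 0.230.

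Igf1r had 0, 56.1, 0 and 38.8 CPM in LP (23.7 ± 28.3, SD, n = 4) and 81.7, 63.7, 0 and 0 CPM in SP12wk (36.4 ± 42.6, SD, n = 4). In SP28wk it had 39.5, 0, 57.1 and 34.7 CPM (32.8 ± 23.9, SD, n = 4). Each group held libraries with and without a read, from 2, 3 and 5 reads in LP, SP12wk and SP28wk. The exact permutation test over the 3 groups gave p = 0.849.

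Akt1 had the most reads of the genes in experiment 1, 37 over the 12 libraries. It had 47.0, 337, 166 and 0 CPM in LP (138 ± 150, SD, n = 4) and 204, 127, 0 and 198 CPM in SP12wk (132 ± 94.9, SD, n = 4). In SP28wk it had 237, 41.5, 57.1 and 69.5 CPM (101 ± 91.3, SD, n = 4). The values within each group spread more widely than the means differed, and the exact permutation test over the 3 groups gave p = 0.893.

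Akt2, Tsc2 and Mtor had 3, 3 and 2 reads in the 12 libraries. Akt2 had 1 read in 1 library of each group, LP replicate 2, SP12wk replicate 3 and SP28wk replicate 2. The Tsc2 reads all fell in SP12wk, 1 in replicate 1 and 2 in replicate 4, and the exact permutation test over the 3 groups gave p = 0.273. Mtor had 1 read in LP replicate 1 and 1 in SP28wk replicate 1. No difference in these 3 genes was detectable at this depth.

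Of the 107 other genes of the pathway, 70 were listed in experiment 1 and 42 could be fitted, and 0 passed edgeR's quasi-likelihood F test after adjustment. At an unadjusted p under 0.05, 3 passed, against 7.47% of all genes, and DESeq2 called 0 of the list after adjustment. Lamtor5, a subunit of the Ragulator complex that anchors the Rag GTPases to the lysosome, had 1 read in LP, 0 in SP12wk and 12 in SP28wk (81.4 ± 56.5 CPM, SD, n = 4), with an adjusted p of 0.310 in edgeR's F test. Rictor, the defining subunit of mTOR complex 2, had 3, 0 and 10 reads in the same order, with an adjusted p of 0.614 in that F test. These 2 genes had the smallest p of the list. In both, the SP28wk values ran from 0 to 124 CPM, so that the 3 groups overlapped at 0. SP28wk libraries were the deepest of the experiment as a group, with a median of 30154 counts against 19640 in LP and 22193 in SP12wk, and the part of depth in these read counts was not tested.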

How the data were processed

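Kidney polyadenylated RNA of 24 hamsters was sequenced as cDNA on nanopore flow cells (a direct cDNA kit in the methods, a PCR-cDNA kit in the labels). The authors basecalled with Guppy, trimmed with Porechop, filtered with Filtlong and aligned with Minimap2 to the mouse RefSeq genome. They deposited unscaled estimated counts per mouse transcript. The labels also list Salmon, with no role. The sources used here do not name the counting program or say how reads were shared among transcripts. Both tables were used in full (24 value columns).

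For each gene symbol the transcript row with the highest total was taken. Its counts were rounded for the fits and for the read numbers. For CPM the unrounded counts were divided by the library total over these rows. Genes detected in 6 or more of 12 libraries (experiment 2) or 4 or more of 12 (experiment 1) were fitted with edgeR 4.0.16 in R 4.3.3 (quasi-likelihood, TMM factors, 1 model per experiment, no covariate), tested on simulated data first, at a Benjamini-Hochberg adjusted p of 0.05. In the simulated data, 4-fold changes were recovered for 40% of changed genes in SP12wk against LP and for 66.3% in PRL against SAL. They were planted only in genes above a minimum mean count, which Akt1 alone of the genes followed in experiment 1 reached. The simulation therefore does not cover the others in that experiment, nor Rptor in experiment 2. Each share pools genes of all higher counts, with 1 fixed spread that was not estimated from these libraries. It does not give the recovery of genes with as few reads as those followed here. Exact two-sided permutation tests of the CPM were computed with numpy 2.4.6. No pair of libraries of a group agreed within sampling noise (ratio of chi-square to its degrees of freedom at least 1.2). Alternatives were summed rows, no filter, a stricter filter, median-of-ratios factors, DESeq2 1.42.0, a replicate block and each library left out.

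The 9 genes and all lists were chosen with earlier results of these data known. Named were the 9 genes, from the pathway list up to 3 in each direction with the smallest p in PRL against SAL and 2 in the F test, and for each of the 9 with a count in all 12 libraries of experiment 2 the 2 genes most like it. Poisson intervals cover counting error only, and the intervals from the edgeR fits include the spread between animals. The SE of a fit was computed as the absolute log2 fold change over the square root of edgeR's F statistic. Its interval was built from that SE with the t distribution. A further gene of the pathway is not reported here.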

Additional observations from a re-analysis of the deposited data

Results flagged for a closer look

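In 9 of 37 groups of values examined, the highest library stood apart from the others of its group, by a gap to the nearest value above the 95% limit of Dixon's test. Chance gives such a gap in about 1 group in 20 of normally distributed values, a rate that cannot be applied to groups of 0 and 1 reads. In 6 of the 9 the gap was 1 read against none, namely Akt2 in LP replicate 2 (56.1 CPM), SP12wk replicate 3 (50.2 CPM) and SP28wk replicate 2 (41.5 CPM), Mtor in LP replicate 1 (47.0 CPM) and SP28wk replicate 1 (39.5 CPM), and Insr in SP12wk replicate 1 (40.9 CPM).

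The other 3 rested on more reads. Akt1 was at 237 CPM in SP28wk replicate 1, from 6 reads, with the other SP28wk libraries between 41.5 and 69.5 CPM. Mtor was at 14.2 CPM in PRL replicate 6, from 5 reads, with the other PRL libraries between 0 and 5.02 CPM. Insr was at 21.4 CPM in SAL replicate 5, from 7 reads, with the other SAL libraries between 12.8 and 15.6 CPM. The cause was not tested for any of them.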

How the results depend on the processing

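Of the 9 genes and the pathway genes that could be fitted under each alternative, none passed an adjusted p of 0.05 in edgeR or DESeq2 (Rptor was fitted in experiment 2 without a filter and in no other setting). The count of all genes called moved. In PRL against SAL it was 0, and 1 with summed rows, 92 without a filter, 52 with the replicate block and 0 to 44 with 1 library left out (44 without PRL replicate 4, 27 without SAL replicate 6, 26 without PRL replicate 3). In SP12wk against LP it was 1, and 0 with summed rows, no filter, the stricter filter, DESeq2 or the replicate block, and 0 to 9 with 1 library left out. In SP28wk against SP12wk it was 7, and 0 with summed rows, 2 with the stricter filter, 2 with DESeq2 and 2 to 11 with 1 library left out. In SP28wk against LP it was 11, and 0, 5 and 2 under the same settings and 8 to 56 with 1 library left out (56 without LP replicate 4). In the F test it was 14, and 0, 7 and 3, and 10 to 41. The cause was not tested.

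The sign of some small differences turned. The log2 fold change of Tsc2 was 0.035 with summed rows and -0.20 to 0.21 with 1 library left out, and its CPM difference was -0.45 to 2.44. Gsk3b ran from -0.12 to 0.27 on the log2 scale and from -0.756 to 7.87 CPM, Igf1r from -0.0058 to 0.23 on the log2 scale and Insr from -1.63 to 3.68 CPM. The exact permutation p of Gsk3a was 0.00217 to 0.0130 in PRL against SAL over all alternatives, with 0.0655 to 0.248 unadjusted in the count models. Over the 3 photoperiod groups its exact permutation p was 0.0788 with summed rows and 0.00260 to 0.152 with 1 library left out. With median-of-ratios factors in place of TMM, the median log2 fold change of all genes went from 0.16 to 0.00 in SP28wk against SP12wk and from 0.18 to -0.03 in SP28wk against LP.

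The replicate block used the sample numbers of the labels. Between libraries with the same number, deviations from the group mean had correlations of -0.0523 to 0.0894 in experiment 1 (12 pairs). In experiment 2 these correlations were -0.105 to 0.153 (6 pairs). Pairs with different numbers were not computed, so that whether libraries with the same number share more than the number was not tested. In experiment 1 a single read decided many values, which limits every statement on it.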

Other observations

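Across the 12 libraries of experiment 2, 5632 genes had a count in every library, and the 2 genes whose log2(CPM + 1) was most like that of each gene by Pearson correlation are given as a description, since the points share their libraries and depth. Each was picked as the highest of 5631 genes compared over 12 libraries, a choice that by itself gives high correlations. Igf1r was most like Atp1b1 (0.88), a sodium pump subunit, and Mier1 (0.87). Insr was most like Cetn3 (0.89) and Tbca (0.88). Akt1 was most like Rps4x (0.79) and Actn1 (0.76). Gsk3a was most like Rab11a (0.83), a GTPase of recycling endosomes, and Wdr5 (0.82). Gsk3b was most like Eif3m (0.87) and Hook2 (0.87), and Tsc2 was most like Bbx (0.86) and Gab1 (0.85). Akt2, Mtor and Rptor lacked a read in at least 1 library and were not compared.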
